A study of Glycine max with 24 samples.

Results

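This set holds the soybean (Glycine max) root genes whose read counts were higher after salt treatment in a GmNFYA overexpressor and not, or hardly, higher after the same treatment in the wild type. They were chosen on CPM, the reads of a gene per 1000000 reads assigned to genes in a library. The ratio of the mean CPM with NaCl to the mean CPM without it, with 0.5 CPM added to both means, had to be at least 2.5 in GmNFYA and at most about 1.3 in Jack. Every GmNFYA library with NaCl also had to lie above every untreated GmNFYA library. Of the 57105 gene rows of the root table, 125 met these conditions, and 124 of them passed the count filter used for tests. The NaCl ratios of both genotypes in root therefore chose these genes, and all root values below are a description.

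The series compared transgenic soybean labelled GmNFYA (line name N3) with 150 mM NaCl for 6 h, transgenic soybean untreated, wild-type Jack with 150 mM NaCl for 6 h, and wild-type Jack untreated, in roots and in leaves. This gave 8 groups of 3 libraries, 24 in all. Jack is a soybean cultivar. The labels give no plant age, no promoter for the transgene and no second transgenic line, and they name no untreated group at 6 h, so that NaCl and the elapsed time cannot be told apart. Replicates are numbered, but nothing says that they came from separate plants, so the p-values rest on a spread between libraries that could be technical. Because tissue was measured in bulk, fewer cells of a type and less RNA per cell cannot be told apart.

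NF-YA is a subunit of NF-Y, a trimeric transcription factor with NF-YB and NF-YC. It contacts the CCAAT sequence found in many promoters and is known from several plants to act in responses to drought and salt. High salt confronts a root with both an osmotic and an ionic stress, and roots answer with changes in ion transport, in osmolyte synthesis and in hormone signalling, with abscisic acid among the main signals. The tables pair no gene ID with a name or a description, and 0 of the IDs matched the RefSeq gene table, so the genes are given by ID, without the prefix, and nothing is said of what they do. For the same reason markers of root and leaf tissue could not be looked up.

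Reads assigned to genes numbered 17005570 to 23459341 per root library and 17696429 to 21053889 per leaf library. The tables do not say which ID the transgene carries. The ID 02G303800, singled out for its difference between the genotypes, had 504 to 544 CPM in GmNFYA roots with NaCl and 369 to 427 CPM in untreated GmNFYA roots, against 3.88 to 7.84 CPM in Jack roots with NaCl and 0.93 to 1.65 CPM in untreated Jack roots. The untreated Jack root libraries stood apart from the other root libraries. Gene rows held 70.8 to 72.3% of their reads, against 75.1 to 78.2% in the other 9. Multiply aligned reads took up 9.24 to 10.3% of their reads, against 5.38 to 5.61% in GmNFYA roots with NaCl, 5.19 to 5.88% in untreated GmNFYA roots and 6.11 to 6.63% in Jack roots with NaCl. Such reads count for no gene, all comparisons with untreated Jack roots rest on these libraries, and the part of these differences in the values below was not tested.

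The gap between the genotypes lay mainly at 0 h. The untreated GmNFYA roots had the lowest of the 4 group means for 119 of the 125 genes. The median over the genes of the group means was 15.9 CPM in GmNFYA roots with NaCl, 3.65 CPM in untreated GmNFYA roots, 11.5 CPM in Jack roots with NaCl and 14.2 CPM in untreated Jack roots. With NaCl, the level of most of these genes in GmNFYA therefore came close to the level that Jack had both without and with NaCl. The highest of the 4 means was that of GmNFYA with NaCl for 70 genes, of untreated Jack for 41 and of Jack with NaCl for 14.

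**Figure D1:**
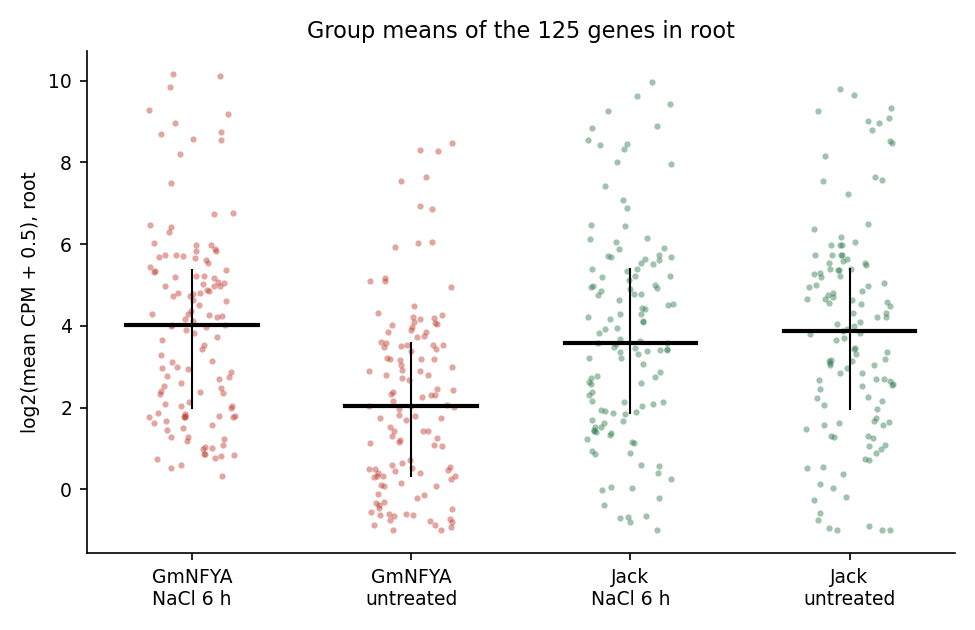
Mean CPM in the 4 root groups for the 125 genes, as log2(mean CPM + 0.5). Each point is a gene, the thick line is the median over genes and the thin line spans the middle 50% of genes. The untreated GmNFYA roots lie below the other 3 groups, with a median of 3.65 CPM against 11.5 to 15.9 CPM.

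The ratio of NaCl to untreated had a median of 3.15 in GmNFYA, with a range of 2.5 to 13, and was at least 5 for 17 genes. In Jack the ratio had a median of 1.03 and a range of 0.192 to 1.326. It was under 1 in Jack for 59 genes and at or under 0.5 for 4. For those 4 genes the mean level in Jack with NaCl was thus at most 0.5 of the untreated level. Over all 36390 root genes that passed the count filter, the median log2 ratio was -0.12 in GmNFYA and -0.16 in Jack on this scale, and -0.0012 and -0.0071 with TMM scaling, which corrects for the make-up of a library. The 125 genes had a median log2 ratio of 1.66 in GmNFYA and of 0.04 in Jack on the CPM scale, which lay 1.77 and 0.2 above the medians of all tested genes. With TMM scaling their median was 1.77 in GmNFYA and 0.18 in Jack, so that the Jack level of a typical member lay slightly higher with NaCl than without it. In edgeR's quasi-likelihood fit with TMM scaling, 27 of the 124 genes that passed the filter had an adjusted p under 0.05 and a higher level with NaCl in Jack roots, where 29% of all genes did. A further 12 had a lower level, where 27.9% of all genes did. Since the rule used this contrast, nothing is read from these counts beyond the fact that "not higher in Jack" holds at the threshold chosen and not for every gene.

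The log2 gap between the genotypes is the log2 ratio in GmNFYA minus the log2 ratio in Jack. It equals the GmNFYA minus Jack difference with NaCl minus the same difference without NaCl. The gap had a median of 1.72 and a range of 0.92 to 5.38. A gene was assigned to 0 h or to 6 h where at least 66.7% of its gap came from that time, and to both times otherwise. By this split, 94 genes (75.2%) belonged to 0 h, 17 (13.6%) to both and 14 (11.2%) to 6 h. Over all 125 genes the median difference, GmNFYA minus Jack, was -1.57 (log2) without NaCl and 0.18 with it, where all tested root genes had medians of 0.09 and 0.1. With TMM scaling the members' medians were -1.65 and 0.05, and those of all tested genes 0.01 and -0.02.

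The 2 times differed in how many genes showed a difference of some size. Untreated GmNFYA roots were at least 2-fold lower than untreated Jack roots for 93 genes, and higher by any amount for 6. With NaCl, GmNFYA roots were at least 2-fold higher than Jack roots for 11 genes and at least 2-fold lower for 3. The genotypes lay within 1.5-fold of each other for 81 genes with NaCl and for 15 without it. The same counts over all tested root genes were not computed. With NaCl, the lower and upper quartiles of GmNFYA minus Jack were -0.15 and 0.59 (log2) for the members. For all tested root genes they were -0.1 and 0.3, so that the members were not closer to Jack than genes in general. Without NaCl the quartiles were -2.14 and -0.98 for the members and -0.12 and 0.32 for all tested root genes. For 41 genes more than the whole gap came from 0 h, since with NaCl GmNFYA still lay below Jack.

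The spread between libraries gave the same order. Among the 124 genes that passed the filter, all 3 untreated GmNFYA libraries lay below all 3 untreated Jack libraries for 110, where 14.2% of all root genes did, and above them for 1, where 28.1% did. With NaCl, the 3 GmNFYA libraries lay above the 3 Jack libraries for 48 genes (38.7%), where 26.3% of all genes did, and below them for 14 (11.3%), where 10.5% did. The excess of higher over lower genes in this background belongs to the CPM scale. With TMM scaling GmNFYA lay below Jack without overlap for 20.1% and above for 20.5% of all genes when untreated, and for 18.8% and 15.3% with NaCl. The counts for the members were then 111 and 1 untreated, and 17 and 36 with NaCl. In edgeR's quasi-likelihood fit, 109 of the 124 genes had an adjusted p under 0.05 and a lower level in untreated GmNFYA roots than in untreated Jack roots (12.6% of all genes). With NaCl, 21 were higher in GmNFYA (7.05% of all genes) and 13 lower (9.9%). The interaction was called with a more positive NaCl change in GmNFYA for 111 (4.28% of all genes). The libraries of these contrasts chose the genes, so that the counts describe the selection.

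A gap that comes mainly from 0 h is not particular to these genes. Among all 1074 tested root genes with a gap at least as large as the smallest in the set, 711 (66.2%) belonged to 0 h by the same split, and without the members 617 of 950 (64.9%). The rule was also turned round, with a ratio of at least 2.5 and no overlap in Jack and a ratio of at most about 1.3 in GmNFYA. This gave 86 genes, of which 25 (29.1%) belonged to 0 h, 30 (34.9%) to both times and 31 (36%) to 6 h. Both sets come from the same 12 root libraries, and no test of the difference between their splits was made.

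**Figure D2:**
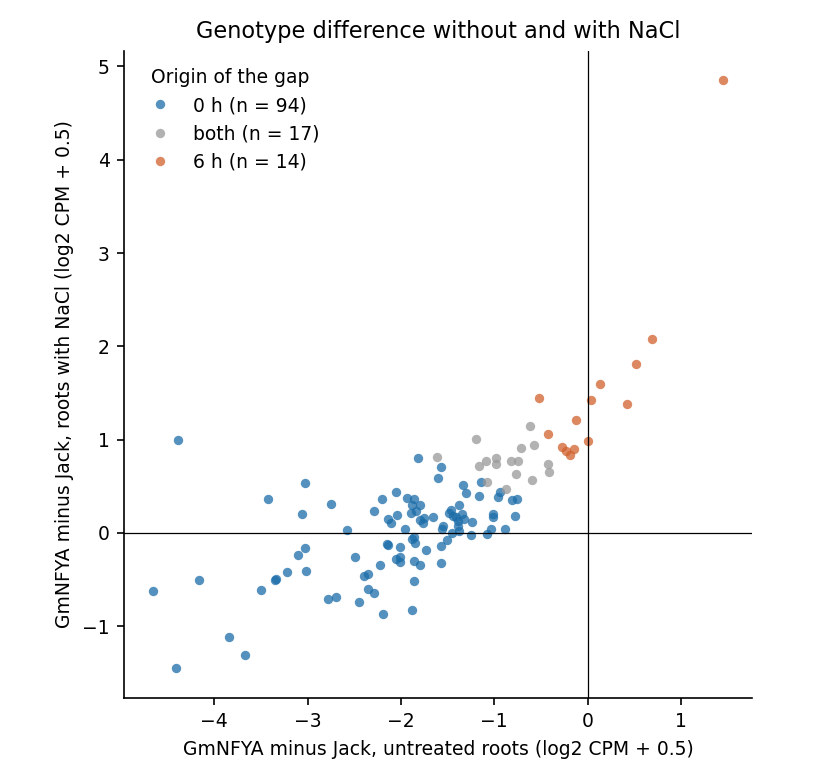
GmNFYA minus Jack in untreated roots (horizontal) and in roots with NaCl (vertical), as differences of log2(mean CPM + 0.5). Each point is 1 of the 125 genes, coloured by the time that gives at least 66.7% of the gap. Most of the 94 genes of the 0 h class lie far left of 0 and near 0 on the vertical axis.

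The 94 genes of the 0 h class had a median GmNFYA minus Jack difference of -1.86 (log2) without NaCl and of 0.04 with it. The largest gap in the set was that of 18G272400. It had 27.8, 26.8 and 18.7 CPM in GmNFYA roots with NaCl and 3.77, 0.792 and 0.835 CPM in untreated GmNFYA roots. In Jack roots it had 9.55, 12.7 and 13.7 CPM with NaCl and 43, 44.5 and 55.5 CPM without it. NaCl went with opposite changes in the genotypes, a ratio of 10.8 in GmNFYA and of 0.26 in Jack, and no library of a NaCl group overlapped the untreated group of its genotype. The log2 gap was 5.38, of which 81.5% lay at 0 h.

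The next largest gap, 4.04, was that of 15G145600. It had 4.01, 3.82 and 2.69 CPM in GmNFYA roots with NaCl and 1.91, 0.326 and 0.0522 CPM in untreated GmNFYA roots. Jack roots had 4.73, 4.28 and 7.92 CPM with NaCl and 38.5, 27.6 and 28.1 CPM without it. The 3 untreated Jack libraries stood far above the other 9 libraries, and the ratio was 3.17 in GmNFYA and 0.192 in Jack. The genotypes did not overlap with NaCl either, but lay within 2-fold of each other by their means of 3.51 ± 0.714 CPM in GmNFYA and 5.64 ± 1.98 CPM in Jack (SD, n = 3 each). Neither 18G272400 nor 15G145600 passed the count filter in leaf.

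Of the 14 genes with at least 100 CPM in GmNFYA roots with NaCl, 13 belonged to the 0 h class, and of the 40 genes with under 5 CPM, 23 did. The added 0.5 CPM shrinks the differences of low genes, and no test was made between these groups. The highest level was that of 18G009700, the 1 gene of these 14 outside the class. It had 1166, 1371 and 929 CPM in GmNFYA roots with NaCl and 377, 310.4 and 244 CPM in untreated GmNFYA roots. Its level in Jack roots was 544, 682 and 857 CPM with NaCl and 675, 461 and 697 CPM without it. GmNFYA with NaCl was above all other libraries and untreated GmNFYA below them, while the Jack groups overlapped, so that 57.1% of its log2 gap of 1.71 lay at 0 h.

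The gene with the next highest level, 01G240300, belonged to the 0 h class. It had 1166, 1135 and 1034 CPM in GmNFYA roots with NaCl and 329, 339 and 393 CPM in untreated GmNFYA roots. In Jack roots it had 932, 1010 and 1061 CPM with NaCl and 962, 889 and 818 CPM without it. The genotypes overlapped with NaCl and were far apart without it, and 89.8% of its log2 gap of 1.48 lay at 0 h. In leaf it was near the limit of detection, with group means of 0.382 to 0.908 CPM.

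The 17 genes of the class between had median differences of -0.82 (log2) without NaCl and 0.77 with it. The largest gap among them with a level of at least 2 CPM was that of 09G049200, 2.43. It had 22.7, 18 and 20 CPM in GmNFYA roots with NaCl and 2.77, 5.22 and 5.38 CPM in untreated GmNFYA roots. Jack roots had 12, 11 and 10.7 CPM with NaCl and 12.6, 16.4 and 14.9 CPM without it. The Jack libraries, with and without NaCl, lay between the GmNFYA groups without overlap.

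The same order held for 01G057700 at a lower level. It had 2.99, 3.92 and 2.64 CPM in GmNFYA roots with NaCl and 0.812, 0.233 and 0.627 CPM in untreated GmNFYA roots. Its level in Jack roots was 1.24, 1.77 and 1.01 CPM with NaCl and 1.97, 1.94 and 1.86 CPM without it. Its log2 gap was 2.2, of which 54.4% lay at 0 h. With 2 CPM added in place of 0.5 the gap was 1.25, and with 0.1 CPM it was 2.82.

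For the 14 genes of the 6 h class the order was different, with medians of -0.06 (log2) without NaCl and 1.3 with it. The largest gap was that of 03G068200, which had 16.5, 18.9 and 16.7 CPM in GmNFYA roots with NaCl and 0, 2.14 and 0.47 CPM in untreated GmNFYA roots. In Jack roots it had 0.256, 0 and 0.101 CPM with NaCl and no read in the 3 untreated libraries. It was thus almost without reads in Jack in either condition, and in untreated roots GmNFYA was at least 17.1-fold higher than Jack, computed against 3 counts over the Jack group, a bound that covers counting error only. Of the 55 counts behind it, 46 came from replicate 2, without which the bound was 4.29-fold, and replicate 1 had no read, like Jack. In leaf its group means were at most 0.548 CPM.

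The gap of 09G224800 was 1.97, or 1.26 with 2 CPM added. It had 4.69, 3.32 and 6.1 CPM in GmNFYA roots with NaCl and 0.573, 0.885 and 1.41 CPM in untreated GmNFYA roots. Jack roots had 1.41, 1.14 and 1.66 CPM with NaCl and 1.59, 1.59 and 1.59 CPM without it. The untreated GmNFYA libraries lay below the untreated Jack libraries, 2 of them clearly so, and the GmNFYA libraries with NaCl stood above all others.

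**Figure D3:**
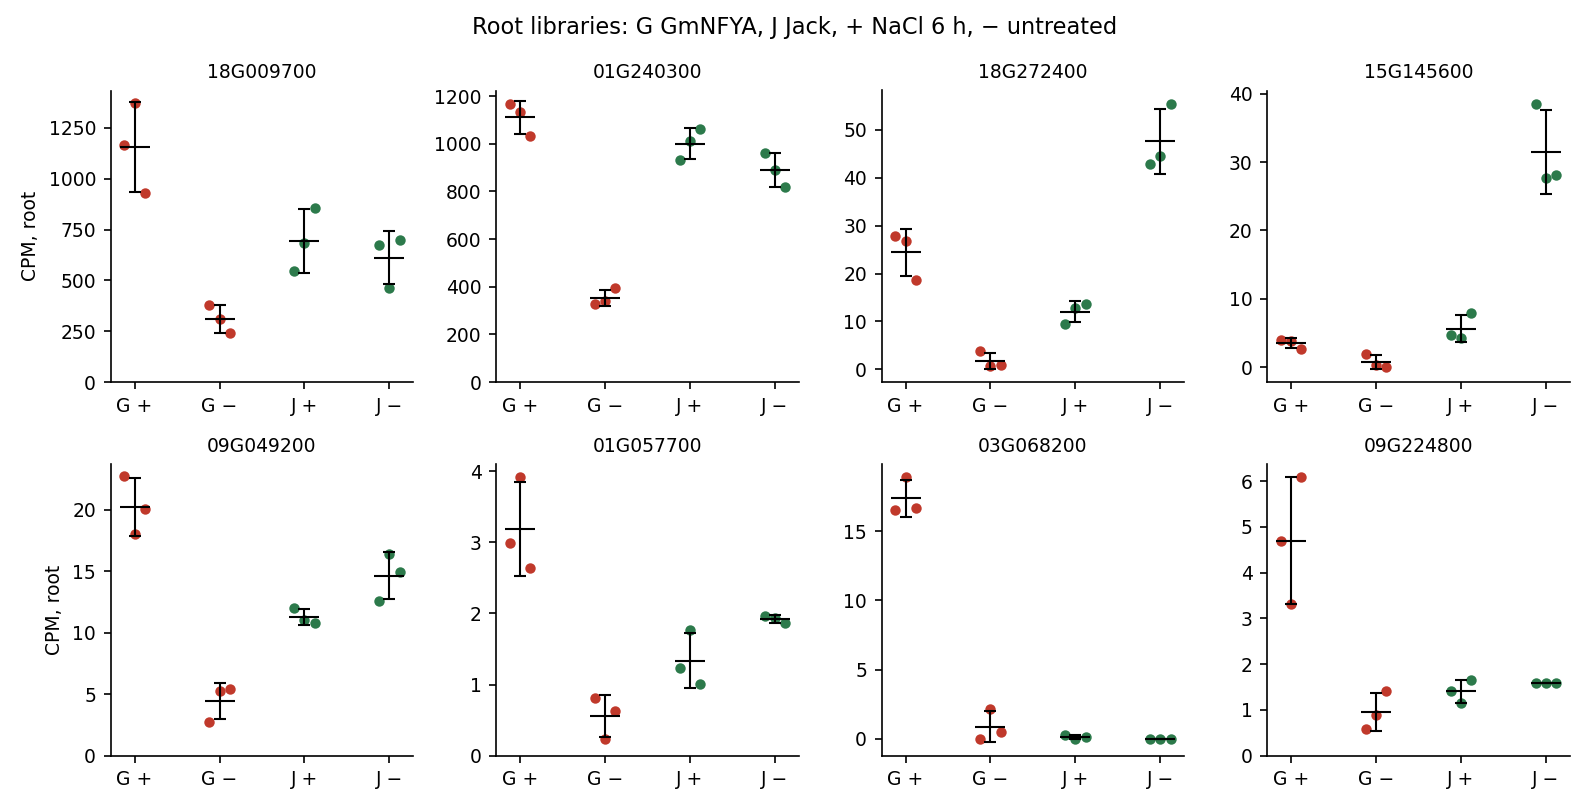
CPM in the 12 root libraries for the 8 genes named for their level, gap or class, with axes starting at 0 or just below it. Each point is a library, and the bar and line are the mean ± SD of 3 libraries. In 18G272400 and 15G145600 the untreated Jack libraries stand highest, while in 03G068200 reads are almost confined to GmNFYA with NaCl.

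Members at the edge of the rule differed little from genes just outside it. The GmNFYA ratio was 2.501 for 15G114100 and 2.508 for 06G205600, which are members, and 2.498 for 02G006200 and 2.496 for 06G006000, which are not. The Jack ratio was 1.326 for 18G038500 and 1.323 for 06G205600, which are members, and 1.332 for 10G215700 and 1.333 for 09G060700, which are not. The condition on overlap removed 1 gene, 09G162500, for which GmNFYA roots had 3.43, 3.13 and 0.624 CPM with NaCl and 0.859, 0.233 and 0.157 CPM without it.

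The set itself moved with the libraries and the scale. In each case where 1 of the 12 root libraries was left out, 125 to 143 genes met the rule, and 69 of the 125 members did so in all 12 cases. With TMM scaling 112 genes met the rule, 93 of them members. The number was 220 with 0.1 CPM added in place of 0.5 and 74 with 2 CPM added. The share of the 0 h class was 70.5 to 77.8% over the cases with a library left out, 77.7% with TMM scaling, 72.3% with 0.1 CPM and 83.8% with 2 CPM.

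The first digits of a soybean ID give the chromosome and the rest follow the order along it, so that positions could be described without coordinates. Of the 125 genes, 16 lay on chromosome 8, which held 12.8% of the members and 6.95% of the tested root genes, and 10 each on chromosomes 16 and 20, which held 3.73 and 4.38% of the tested genes. Chromosome 12 held 1 member, and 2 members were on unplaced scaffolds. Within a chromosome, 6 pairs of members with no other member between them lay within 5 IDs of each other, 4 of them with consecutive IDs. The number of such pairs among genes in general was not computed. The genes of all 6 pairs belonged to the 0 h class.

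A run of 3 consecutive IDs on chromosome 8 was singled out after its values were seen. The gene 08G341100 had 29.2, 29.5 and 24.1 CPM in GmNFYA roots with NaCl and 8.45, 8.11 and 9.82 CPM without it, against 32, 21.2 and 19.9 CPM in Jack roots with NaCl and 23.1, 27.5 and 23.4 CPM without it. Its neighbour 08G341200 averaged 62.3 ± 4.11 CPM in GmNFYA roots with NaCl and 18.7 ± 3.09 CPM without it, against 52.2 ± 14.9 CPM in Jack roots with NaCl and 52.5 ± 7.04 CPM without it (SD, n = 3 each). The third gene, 08G341300, averaged 374 ± 25.4 CPM in GmNFYA roots with NaCl and 122 ± 25.1 CPM without it, against 459 ± 34.7 CPM in Jack roots with NaCl and 446 ± 85 CPM without it (SD, n = 3 each). All 3 genes had about the same ratio, 3.02, 3.27 and 3.05 in GmNFYA and 0.987, 0.995 and 1.03 in Jack, at levels that differed more than 10-fold. The rule bounds these ratios, and the medians over all 125 members were 3.15 and 1.03, so that the likeness is not particular to the run. In leaf 08G341100 had group means of 6.05 to 11.3 CPM, while 08G341200 and 08G341300 stayed under 0.2 CPM. Neighbouring genes can be near-identical copies, and reads that fit several places count for no gene, so that the levels of such genes are uncertain.

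The leaf libraries were not used by the rule and can be tested. Of the 125 genes, 77 passed the count filter in leaf, and the other 48 reached at most 1.15 CPM in any leaf library. Tests were edgeR's quasi-likelihood tests over the 12 leaf libraries, with a gene called at an adjusted p under 0.05 over all 35222 genes tested. In GmNFYA leaves 16 of the 77 genes were higher with NaCl (20.8%, against 17.8% of all genes) and 26 were lower (33.8%, against 18.2%). In Jack leaves 15 were higher with NaCl (19.5%, against 17.8%) and 15 were lower (19.5%, against 15.7%). The median log2 change of the 77 genes was -0.47 in GmNFYA leaves and -0.03 in Jack leaves, and that of all tested genes was -0.02 and -0.01. In leaves of the line whose roots had them higher with NaCl, these genes thus had 26 calls lower and 16 higher. Some called genes passed the count filter only through the group where they were high, so that their values are a description. Among them are 11G067900 and 18G231400 of the rises and 08G109300 of the falls in GmNFYA leaves. How many calls are of this kind was not counted. By edgeR's test 10 genes rose in both genotypes (12% of all genes) and 12 fell in both (9.76% of all genes). A further 20 were called in GmNFYA leaves alone (14% of all genes), 8 in Jack leaves alone (11.5% of all genes) and 27 in neither (52.4% of all genes).

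For comparison, 1576 genes had a root ratio of at least 2.5 and no overlap in GmNFYA and in Jack, and 1322 of them were tested in leaf. With NaCl, 50% of them were higher in GmNFYA leaves and 57.4% in Jack leaves, and 12.5% and 4.99% were lower. Of the 86 genes of the rule turned round, 69 were tested in leaf. With NaCl, 36.2% of these were higher in GmNFYA and 56.5% in Jack, and 14.5% and 2.9% were lower. The differences between the sets were not tested.

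In each leaf comparison, genes were ranked by fitted log2 change among those that edgeR called. Of those that rose in GmNFYA leaves, 11G067900 had 1.25, 2.18 and 1.06 CPM with NaCl and no read in the 3 untreated libraries. It was at least 28.2-fold higher, computed against 3 counts over the untreated group. Leaves of Jack held 4 counts of this gene with NaCl and 0 without it, and Jack roots held none in either condition. In GmNFYA roots it had 0.29, 1.39 and 1.34 CPM with NaCl and 3 counts over the 3 untreated libraries. The gene passed the leaf count filter only through the GmNFYA libraries with NaCl, and it is the 1 member that did not pass the filter in root, so that its values are a description.

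The other gene named for its rise, 18G231400, had 3.54, 6.09 and 2.53 CPM in GmNFYA leaves with NaCl and 0.201, 0 and 0.0505 CPM without it (log2 change 5.39 ± 0.81, SE). In Jack leaves it had 0.241, 0 and 0 CPM with NaCl and 0.142, 0 and 0.0487 CPM without it. With NaCl the GmNFYA leaves were higher than Jack leaves (log2 difference 5.46 ± 0.81, SE), and the interaction did not pass edgeR's test (adjusted p = 0.19). In roots, by contrast, Jack had 18.5, 26.2 and 22.4 CPM with NaCl and 23.7, 28.5 and 14.1 CPM without it, so that the gene was read there in both genotypes. It passed the leaf count filter only through the GmNFYA libraries with NaCl, so that its leaf values are a description.

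The deepest called falls in GmNFYA leaves were those of the neighbours 14G0490002 and 14G049200. In GmNFYA leaves 14G0490002 had 0.149, 0.391 and 0.506 CPM with NaCl and 14.9, 24.8 and 19.8 CPM without it (log2 change -5.87 ± 0.43, SE, adjusted p = 2.49e-06 in edgeR's test). In Jack leaves it had 1.35, 0.429 and 0.92 CPM with NaCl and 18.1, 14 and 22.9 CPM without it (log2 change -4.43 ± 0.37, adjusted p = 1.36e-05). This gene fell in leaves of both genotypes, while in GmNFYA roots it had 17.5, 18.4 and 14.5 CPM with NaCl and 2.86, 4.61 and 2.71 CPM without it. In Jack roots it had 9.68, 19.8 and 15.6 CPM with NaCl and 11, 14.3 and 12.6 CPM without it, groups that overlap.

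Its neighbour 14G049200 had 0.997, 1.57 and 3.09 CPM in GmNFYA leaves with NaCl and 47.8, 69.4 and 64.2 CPM without it (log2 change -5.06 ± 0.55, SE, adjusted p = 8.51e-05 in edgeR's test). In Jack leaves it had 6.51, 4.43 and 11.4 CPM with NaCl and 37.2, 26.4 and 67.4 CPM without it. In GmNFYA roots it had 88.2, 86 and 81.7 CPM with NaCl and 10.1, 17.1 and 18.5 CPM without it. NaCl thus went with opposite directions in the 2 tissues of the line, without overlap in either.

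In Jack leaves the largest fitted rises among called genes were those of 17G046600 and 08G209800. The gene 17G046600 had 1.98, 0.953 and 0.818 CPM with NaCl and 3 counts over the 3 untreated libraries, a ratio of 25.3 with an exact (Clopper-Pearson) 95% counting interval of 8.33 to 125. It also rose in GmNFYA leaves (log2 change 3.78 ± 0.64, SE). The gene 08G209800 had 1.06, 0.906 and 2.4 CPM with NaCl and 0.19, 0.0534 and 0 CPM without it in Jack leaves (log2 change 3.97 ± 0.73, SE). In GmNFYA leaves it rose as well, by 2.48 ± 0.74 (log2, SE). Both genes passed the leaf count filter only through libraries with NaCl, so that their leaf values are a description. After 14G0490002, the deepest called fall in Jack leaves was that of 16G134600, at 0, 0.0953 and 0.204 CPM with NaCl and 1.23, 0.374 and 0.438 CPM without it (log2 change -2.8 ± 0.89, SE). That call was lost without Jack NaCl replicate 1 or 2 or untreated Jack replicate 1 (adjusted p = 0.0752, 0.075 and 0.145 in edgeR's test). The gene passed the leaf count filter only through untreated libraries, so that its leaf values are a description.

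**Figure D4:**
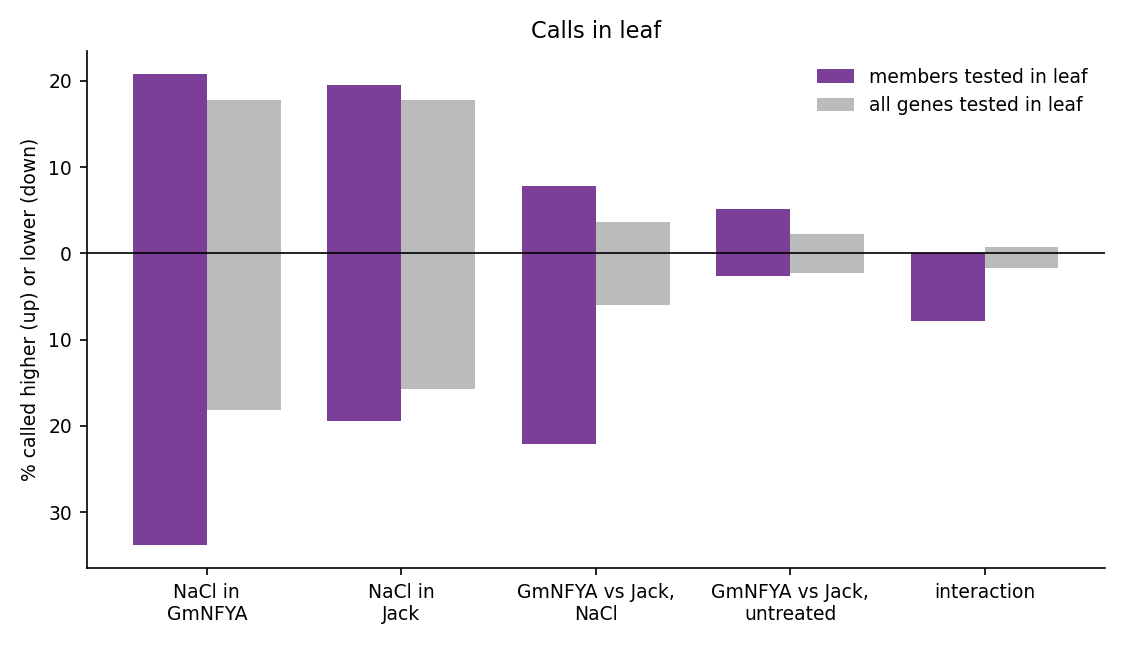
Share of the 77 members tested in leaf (purple) and of all 35222 genes tested in leaf (grey) that edgeR called higher (upward bars) or lower (downward bars) in 5 contrasts, in percent. The members' bars are longer than the background's for falls with NaCl in GmNFYA, 33.8% against 18.2%, and for lower levels in GmNFYA than in Jack with NaCl, 22.1% against 5.95%.

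Few of the genes were called between the genotypes in untreated leaves. Untreated GmNFYA leaves were higher than untreated Jack leaves for 4 of the 77 genes (5.19%, against 2.3% of all genes) and lower for 2 (2.6%, against 2.21%). The median log2 difference was 0.06 for the members and -0.01 for all genes. No test of the difference between the tissues was made. The highest difference among the called genes was that of 02G240000, with 1.15, 0.961 and 1.36 CPM in untreated GmNFYA leaves and 0.237, 0.374 and 0.0974 CPM in untreated Jack leaves (log2 difference 2.21 ± 0.48, SE). This gene passed the leaf count filter only through GmNFYA libraries, so that its leaf values are a description. In untreated roots the order was the opposite, at 3.96, 5.26 and 4.86 CPM in GmNFYA and 28.4, 31.7 and 25.8 CPM in Jack. The call in leaf was lost without untreated GmNFYA replicate 1 or 3 or untreated Jack replicate 1 or 3 (adjusted p = 0.0752, 0.0935, 0.0701 and 0.055 in edgeR's test).

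The same reversal was seen for 15G146600, with 6.83, 6.16 and 7.47 CPM in untreated GmNFYA leaves and 2.23, 1.01 and 2.09 CPM in untreated Jack leaves (log2 difference 1.83 ± 0.26, SE, adjusted p = 0.00191 in edgeR's test). In untreated roots it had 12.9, 15 and 14 CPM in GmNFYA and 50.8, 57.4 and 50.9 CPM in Jack. The root order of 02G240000 and 15G146600 was that of most members. Only 6 of the 125 genes were higher in untreated GmNFYA roots than in untreated Jack roots. The 2 genes that were lower in untreated GmNFYA leaves were 07G250500 and 06G143300. The gene 07G250500 had 0.452, 0.678 and 0.656 CPM in untreated GmNFYA leaves and 1.99, 2.83 and 1.66 CPM in untreated Jack leaves (log2 difference -1.92 ± 0.31, adjusted p = 0.00486). It was low in untreated roots as well, at 0.0955, 0.326 and 0.0522 CPM in GmNFYA and 0.383, 0.647 and 0.773 CPM in Jack. The gene 06G143300 had 26.1, 31.1 and 25.3 CPM in untreated GmNFYA leaves and 62, 112 and 44.3 CPM in untreated Jack leaves (log2 difference -1.47 ± 0.27, adjusted p = 0.012). That call was lost without untreated GmNFYA replicate 1 or 3 and with only the untreated groups in the fit (adjusted p = 0.066, 0.0614 and 0.0514). Without untreated GmNFYA replicate 1 or 3 of leaf, 2 genes in place of 4 were called higher (0.806 and 0.86% of all genes). In the same cases 1 in place of 2 was called lower (0.624 and 0.667% of all genes).

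With NaCl, GmNFYA leaves were lower than Jack leaves for 17 of the 77 genes (22.1%, against 5.95% of all genes) and higher for 6 (7.79%, against 3.65%). The median log2 difference was -0.34 for the members and -0.01 for all genes. The count of 17 rests on few libraries. It was 6 and 5 without GmNFYA NaCl replicate 1 and 2, when 2.73 and 2.48% of all genes were called lower, and 9 without Jack NaCl replicate 1 (5.77% of all genes). With only the groups with NaCl in the fit it was 7 (4.21% of all genes). In GmNFYA NaCl replicate 3, multiply aligned reads took up 9.29%, against 4.87 and 5.01% in the other 2 libraries of its group, and without it the count was 13 (3.45% of all genes).

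The genes named for a higher level in GmNFYA leaves with NaCl are 18G231400 and 11G067900, described above. Both passed the leaf count filter only through the GmNFYA libraries with NaCl. The lowest relative level among the called genes was that of 08G109300, with 2 counts over the 3 GmNFYA libraries with NaCl and 22 over the 3 Jack libraries with NaCl, 10.4-fold lower with an exact 95% counting interval of 2.55 to 90.9 (adjusted p = 0.0304 in edgeR's test). That call was lost without any 1 of the GmNFYA NaCl libraries and without Jack NaCl replicate 1 or 3, with adjusted p between 0.0564 and 0.108. The gene passed the leaf count filter only through the untreated GmNFYA libraries. The next was 17G211300, with 0.199, 1.06 and 4.1 CPM in GmNFYA leaves with NaCl and 4.58, 18.3 and 21.1 CPM in Jack leaves with NaCl (log2 difference -3.11 ± 0.83, SE, adjusted p = 0.0437). Its call was lost under 11 of 17 alternatives, with adjusted p up to 0.145, and the 3 GmNFYA libraries were far apart. Both genes had lower levels in untreated GmNFYA roots than in untreated Jack roots, at 1.59 ± 0.371 against 8.07 ± 0.446 CPM for 08G109300 and 0.607 ± 0.364 against 1.98 ± 0.853 CPM for 17G211300 (SD, n = 3 each).

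The interaction in leaf compares the NaCl change of GmNFYA with that of Jack, which differ in root by the rule. It was called with a more negative change in GmNFYA for 6 of the 77 genes (7.79%, against 1.67% of all genes) and with a more positive change for 0 (against 0.781%). The 6 include 08G109300, which passed the leaf count filter only through the untreated GmNFYA libraries. Of the 77 estimates 57 were negative, and the median was -0.52 (log2), against -0.0015 over all genes. At an unadjusted p under 0.05 in edgeR's test, 7 estimates were positive (6.68% of all genes) and 24 negative (9.76% of all genes). DESeq2 called 3 positive (1.9% of all genes) and 10 negative (3.51% of all genes). A negative leaf interaction was not particular to genes chosen in this root direction. The 69 tested genes of the rule turned round had a median of -0.69 (log2), with 4 called more negative (5.8%). The 1322 tested genes with a high ratio in both genotypes had a median of -0.16, with 37 called more positive (2.8%) and 76 more negative (5.75%). With the replicate block, edgeR called 2 more positive (1.04% of all genes) and 7 more negative (2.88% of all genes). The 6 calls all belonged to the 0 h class, as did 59 of the 77 genes tested. They depend on single libraries, and the share of all genes called more negative moved as well. Without GmNFYA NaCl replicate 1 or 2, 0 remained (0.569 and 0.562% of all genes). The same held without untreated GmNFYA replicate 3 or untreated Jack replicate 1 (0.441 and 0.603%). Without untreated GmNFYA replicate 1, 1 remained (0.882%). The number was 2 without untreated GmNFYA replicate 2 or Jack NaCl replicate 3 (0.461 and 1.02%). Without untreated Jack replicate 2, 3 were called (2 of the 6 and 1 other, 1.7%). Without GmNFYA NaCl replicate 3, 4 were called, 2 of them among the 6 (1.24%).

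The largest leaf interaction among the called genes was that of 08G109300. It had 0, 0.0559 and 0.0506 CPM in GmNFYA leaves with NaCl and 0.703, 0.848 and 1.21 CPM without it, 26.6-fold lower with NaCl by 2 against 53 counts, with an exact 95% counting interval of 7.02 to 226. In Jack leaves it had 0.386, 0.238 and 0.46 CPM with NaCl and 0.427, 0.16 and 0.633 CPM without it, groups that overlap. The fitted log2 difference of -4.28 ± 0.98 (SE) depends on the prior count. The gene passed the leaf count filter only through the untreated GmNFYA libraries, so that these leaf values are a description. The next was 11G070500, at 2.14, 1.79 and 2.13 CPM in GmNFYA leaves with NaCl and 17.5, 15.8 and 17.2 CPM without it. In Jack leaves it had 18.6, 5 and 5.98 CPM with NaCl and 11.5, 9.07 and 14.6 CPM without it (log2 difference between the genotypes -2.77 ± 0.61, SE, adjusted p = 0.0449 in edgeR's test). In GmNFYA roots the same gene had 33.7, 27.3 and 32.1 CPM with NaCl and 7.5, 11.3 and 12.3 CPM without it, against 28, 25.9 and 25.2 CPM in Jack roots with NaCl and 49.9, 58.7 and 49.3 CPM without it. Both calls were lost under 9 of 16 alternatives, with adjusted p up to 0.11 and 0.125.

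**Figure D5:**
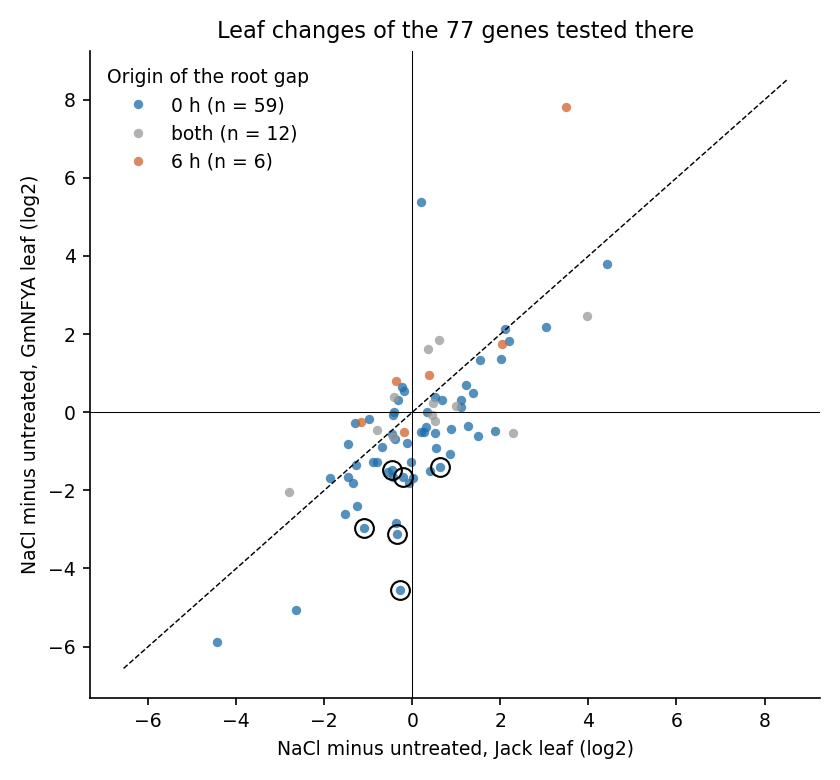
Log2 change with NaCl in Jack leaves (horizontal) and in GmNFYA leaves (vertical) from edgeR for the 77 members tested in leaf, coloured by the class of the root gap; the dashed line marks equal change and circles mark the 6 genes called in the leaf interaction. All 6 circled genes lie below the line, as do 57 of the 77. The fitted value of 11G067900, at the top right, rests on 0 untreated counts in both genotypes and depends on the prior count.

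The leaf values were also counted by the class of the root gap. Of the 59 genes of the 0 h class tested in leaf, 10 were higher with NaCl in GmNFYA leaves (16.9%, against 17.8% of all genes) and 25 were lower (42.4%, against 18.2%) by edgeR's test. Of the 12 genes of the class between, 3 were higher, and of the 6 genes of the 6 h class 1 was lower and 3 were higher. The median leaf interaction was -0.7 (log2) in the 0 h class, -0.21 in the class between and 0.75 in the 6 h class. With 12 and 6 genes in the smaller classes, no difference between the classes was tested.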

How the data were processed

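Raw whole-number counts per gene were deposited by the authors, with the 12 root and the 12 leaf libraries in a table each. HISAT2, featureCounts and DESeq2 are named, without role or version, in the submitters' processing notes. Genome build, annotation and strand setting were not given in the sources used here. Rows of unassigned reads stayed out of all sums; gene rows held 70.8 to 78.2% of root and 75.5 to 81.2% of leaf reads. The members, the gene lists and the tests were chosen with earlier results of these data known.

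Each tissue was fitted with edgeR 4.0.16 in R 4.3.3 (filterByExpr with a minimum count of 10, TMM, robust dispersion over 4 groups, quasi-likelihood F test, Benjamini-Hochberg adjustment over all genes tested). CPM values use the sum of gene rows without TMM factors. Fitted log2 changes use TMM. The SE is the log2 change divided by the square root of F.

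IDs were named by rule: the 2 with the highest level in GmNFYA roots with NaCl, the 2 with the largest gap in all and per class among genes of at least 2 CPM, the 2 largest leaf changes per direction and contrast, and the 2 on each side of a threshold. The gene groups and tissue markers set by description could not be filled, and promoter motifs were not analysed here. The fit was also run on simulated leaf counts, and no statement here rests on that run. No 2 libraries of a group agreed within sampling noise (chi-square per degree of freedom at least 3.28). Nothing in the labels says what a replicate number shares, but same-numbered leaf libraries with NaCl deviated together between the genotypes (correlations of 0.113, 0.172 and 0.239). Between Jack leaves with and without NaCl the correlations were 0.3, 0.16 and 0.0855. In root they ran from -0.219 to 0.17 over all pairs of groups. Alternatives were DESeq2 1.42.0, RLE factors, no count filter, only the compared groups, a replicate block, other added constants, TMM-scaled CPM and leaving out each library.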

Additional observations from a re-analysis of the deposited data

Results flagged for a closer look

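Of the 26 genes that fell with NaCl in GmNFYA leaves, all 26 had every GmNFYA leaf library with NaCl below every untreated one, while by the rule every GmNFYA root library with NaCl lay above every untreated one. The absence of overlap in leaf follows largely from the call, since 97.8% of all 6421 leaf genes called lower show it. The 26 include 08G109300, which passed the leaf count filter only through the untreated GmNFYA libraries. The difference between the tissues was not tested.

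In leaf, 6 genes passed the test of the interaction of genotype and NaCl in edgeR's quasi-likelihood fit, all 6 with a more negative change in GmNFYA (7.79%, against 1.67% of all genes). No call remained in 4 of the 12 cases with a leaf library left out, where 0.441 to 0.603% of all genes were called more negative. The largest log2 differences were -4.28 for 08G109300 and -2.77 for 11G070500 (adjusted p = 0.0449 in edgeR's test), and each call was lost under 9 of 16 alternatives. The gene 08G109300 passed the leaf count filter only through the untreated GmNFYA libraries, so that its value is a description.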

How the results depend on the processing

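With 0.1 CPM added, 220 genes met the rule, with 159 in the 0 h class, 31 between and 30 in the 6 h class; with 2 CPM added, 74, with 62, 9 and 3. Leaving out each root library gave 125 to 143 genes, with 89 to 106, 16 to 22 and 13 to 19 in the classes. DESeq2 called 7 members in place of 4 higher in untreated GmNFYA leaves (4.04 in place of 2.3% of all genes), and 3 in place of 0 more positive and 10 in place of 6 more negative in the leaf interaction (1.9 in place of 0.781% and 3.51 in place of 1.67% of all genes). When the fit held the compared groups alone, 1 member in place of 2 was lower in untreated GmNFYA leaves and 7 in place of 17 with NaCl (1.65 in place of 2.21% and 4.21 in place of 5.95% of all genes). The cause was not tested. With 1 leaf library left out, 2 to 5 members were called higher in untreated GmNFYA leaves (0.806 to 2.97% of all genes) and 1 to 3 lower (0.624 to 2.95%). With NaCl, 5 to 19 were called lower in GmNFYA (2.48 to 7.41% of all genes). The interaction was called more positive for 0 to 1 (0.198 to 1.39%) and more negative for 0 to 8 (0.441 to 2.83%). With the replicate block, 2 members in place of 0 had a more positive interaction (1.04 in place of 0.781% of all genes), and no other count of members moved by more than 1.5 times. Deviations of same-numbered leaf libraries had correlations of -0.06 to 0.3 over all pairs of groups, over 0.1 in 5 of 18 pairs. All 3 between GmNFYA and Jack with NaCl were over 0.1, and with the block 16 members in place of 17 were lower there (6.64 in place of 5.95% of all genes). None of the 18 leaf changes and 8 root gaps of named genes that were recomputed changed direction. Low counts limit the 48 members not tested in leaf, and counting intervals cover counting error only.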
